A study of Mus musculus with 48 samples.

Results

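Engulfment of dying or stressed cells is set by signals on the target and receptors on the phagocyte. Cd47 on a target cell binds Sirpa on a phagocyte and restrains engulfment, Cd24a is a second surface protein described as such a brake, and surface Calr (calreticulin) promotes uptake. Gas6 and Pros1 bridge exposed phosphatidylserine to the TAM receptors (Tyro3, Axl and Mertk), Mfge8 bridges it to integrins, and Trem2 is a lipid receptor of microglia and macrophages that signals through the adaptor Tyrobp (DAP12). These 10 genes were taken by symbol, and 10 of 10 were found among the 20300 genes of the whole-tumor table and 10 of 10 among the 14363 genes of the CD11b+ table. They were described in tumor cells and in microglia, macrophages and dendritic cells.

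GL261 is a mouse glioma cell line, implanted here into the striatum of male C57BL/6 mice. Before implantation the line was given either a control hairpin RNA (shNC) or one that targets Selp, the gene of P-selectin (shSELP), so the hairpin was in the tumor cells and not in the host. The whole-tumor mix, collected on day 16, had 2 libraries per group of 8 sequencing entries each. It was pooled equally from a CD11b+ fraction, a CD45+ fraction isolated next, and all leftover cells. By the paper's account the leftover fraction held cancer cells alongside other parts of the brain microenvironment, so it was not cancer cells alone. The CD11b+ experiment, collected on day 21, had 1 library per group. The study's methods describe pooled brains per group without saying whether the 2 libraries of a group were separate pools, so p-values measure the spread between libraries, which may be technical. The methods name another collection day and another kit version than the labels do, and cell numbers that differ from those in the tables. In 7 CD11b+ shSELP entries a description line names the negative control, while title, source name and genotype say shSELP.

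The unit was the unique molecular identifier (UMI), 1 per captured transcript. Listed UMIs totalled 22945972 and 22626413 in shNC replicates 1 and 2 of the mix and 17398121 and 25589350 in shSELP replicates 1 and 2. The CD11b+ libraries held 12628177 UMIs (shNC) and 11445676 UMIs (shSELP). Levels are UMIs of a gene scaled to the summed UMIs of its class in that library (CPM). Counting of 3′ ends gives 1 count per transcript whatever its length, so no length correction was made between genes. Barcodes shared between libraries numbered 5 in the mix and 3 in the CD11b+ table.

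Cells were gated one by one on fixed marker lists that held none of the 10 genes. In the mix, 546 cells were tumor-like, 593 microglia-like, 3185 macrophage-like (monocytes included) and 448 dendritic-cell-like, of 8726 cells kept. Tumor-like cells numbered 274 and 177 in the shNC libraries against 43 and 52 in the shSELP libraries, so the shSELP tumor-like sums were the shallowest, with 678255 and 422601 UMIs. The classes are ranges of a score. Of these cells, 89 tumor-like, 78 microglia-like, 161 macrophage-like and 48 dendritic-cell-like cells had a margin under 0.1 to the next class. A stricter gate kept 198 of 274 and 98 of 177 tumor-like cells in shNC but 18 of 43 and 15 of 52 in shSELP. The median microglia score over cells was 0.5 in microglia-like and 0.0902 in macrophage-like cells, and the median macrophage score was 0.42 for cells gated as macrophage-like, against 0.0577 in microglia-like cells. The CD11b+ table gave 325 microglia-like, 4100 macrophage-like and 197 dendritic-cell-like cells, and its 8 tumor-like cells were not analysed.

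Selp, the targeted gene, could not be checked in tumor cells. Tumor-like cells held 1 Selp UMI in shNC replicate 1 and 0 UMIs in the other 3 libraries, where a count of 0 allows up to 1.04 CPM in shNC replicate 2, 4.42 CPM in shSELP replicate 1 and 7.1 CPM in shSELP replicate 2. Endothelial-like cells, which do not carry the hairpin, had Selp at 60.5 and 60.3 CPM in the shNC libraries and 9.11 and 15 CPM in the shSELP libraries, from 8, 12, 15 and 7 UMIs.

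The 10 genes were ordered by cell class, with receptors and adaptors in phagocytes and 2 of the 3 bridges, Pros1 and Mfge8, also in tumor-like cells. In a joint edgeR fit with library as a block, 10 of 10 differed between tumor-like and macrophage-like cells at an adjusted p under 0.05, where 72.5% of 9968 genes did. Within tumor-like cells 5 of the 10 passed the filter on low counts. Sirpa, Cd24a, Mertk, Gas6 and Trem2 did not and entered this fit through other classes, so their calls were partly set by the filter. Between microglia-like and macrophage-like cells 7 of 10 differed, against 38% of genes. Between dendritic-cell-like and macrophage-like cells 9 of 10 differed, against 41% of genes. Within dendritic-cell-like cells 7 of the 10 passed the filter, and Mertk, Gas6 and Pros1 did not. Cd24a did not pass it within microglia-like cells. These genes too entered the joint fit through other classes. The median log2 difference of the 10 genes, tumor-like minus macrophage-like, was -3.64, and that of all genes tested was 0.04. These fits use TMM scaling, which assumes that most genes do not differ, while CPM are scaled to summed UMIs. With summed UMIs in place of TMM, 9 of 10 passed between tumor-like and macrophage-like cells. Calr did not (0.0268, edgeR adjusted p = 0.89, from -0.67 with TMM). Its CPM were higher in tumor-like than in macrophage-like cells in 2 libraries and lower in 2. After thinning each cell to 2000 UMIs, the tumor-like minus macrophage-like difference of Cd24a no longer passed (-1.47 from -2.08, edgeR adjusted p = 0.0505).

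**Figure D1:**
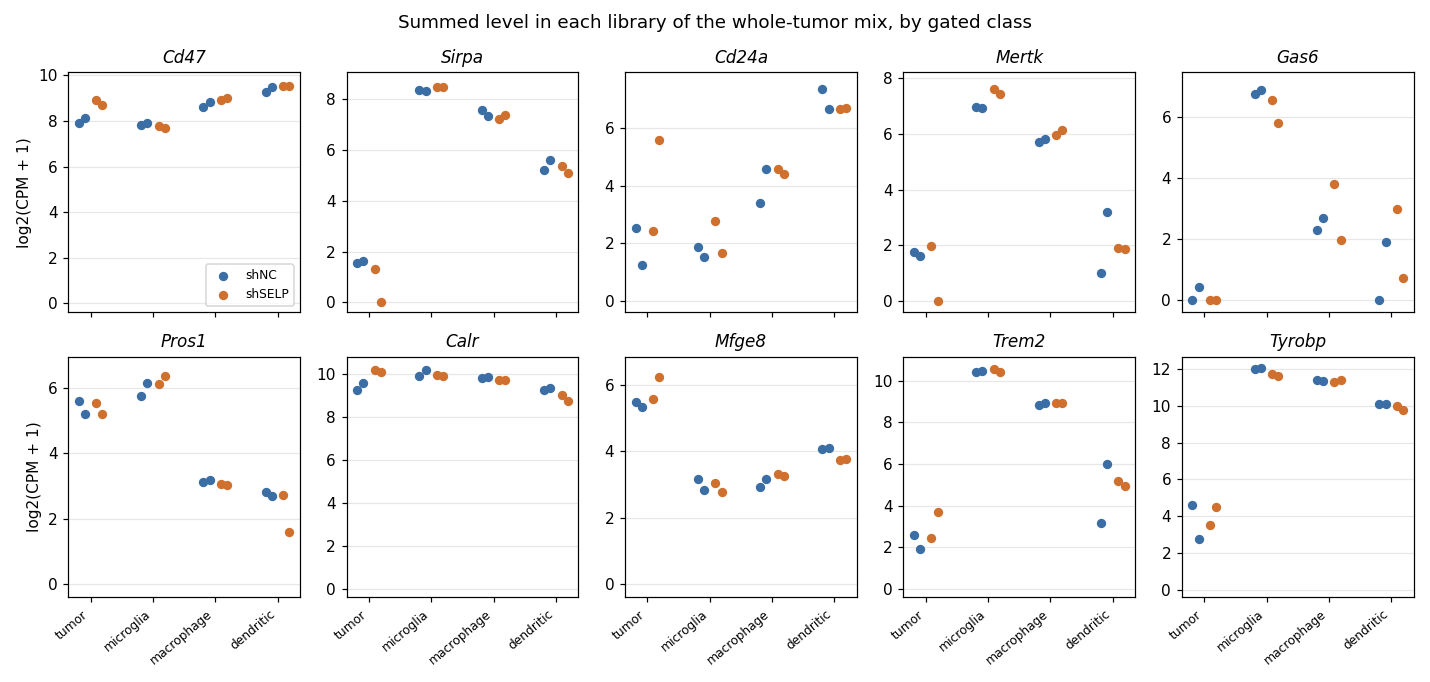
Summed level of each gene in the whole-tumor mix as log2(CPM + 1), with 1 point per library and class, shNC in blue and shSELP in orange. Trem2, Tyrobp, Sirpa and Mertk sit near the bottom in tumor-like cells and highest in microglia-like cells, Gas6 is high in microglia-like cells, and Mfge8 is highest in tumor-like cells.

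Trem2 and Tyrobp were phagocyte genes in these tumors. Trem2 lay at 1366 and 1416 CPM in shNC and 1494 and 1351 CPM in shSELP microglia-like cells. In macrophage-like cells it lay at 455 and 488 CPM in shNC and 480 and 485 CPM in shSELP. The microglia-like libraries were all above the macrophage-like ones, by a log2 difference of 1.43 ± 0.22 (SE, n = 4 libraries, edgeR adjusted p = 2.85e-05). In dendritic-cell-like cells Trem2 lay at 7.96 and 62.7 CPM in shNC and 34.7 and 29.5 CPM in shSELP, and in tumor-like cells it spanned 2.77 to 11.8 CPM. After thinning each cell to 2000 UMIs, a Trem2 UMI was found in 90.1% of microglia-like cells (95% exact binomial interval 87.3 to 92.4%) and 48.1% of macrophage-like cells (46.3 to 49.8%). T-like cells, which should lack it, gave 1.34%, and tumor-like cells 1.36%, which is at that background. Without thinning these shares were 98.5%, 80%, 4.18% and 5.31%, at median depths of 8780, 11853, 5973 and 15753 UMIs. Thinning left out 39, 50, 72 and 33 shallower cells of these classes, and the intervals cover counting error only.

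Tyrobp, the adaptor, was the most abundant of the 10 in the 3 phagocyte classes. It spanned 3147 to 4312 CPM in microglia-like, 2557 to 2682 CPM in macrophage-like and 877 to 1085 CPM in dendritic-cell-like cells. The first pair did not differ past the threshold (log2 difference 0.36 ± 0.20, edgeR adjusted p = 0.157), although it did with cells thinned to 2000 UMIs (0.42, adjusted p = 0.0299) and with summed UMIs in place of TMM (0.49, adjusted p = 0.0421), while dendritic-cell-like cells were lower than macrophage-like cells (-1.51 ± 0.20, adjusted p = 3.53e-06). Tumor-like cells had 5.88 to 23.8 CPM and T-like cells 79.5 to 122 CPM. Tyrobp is also an adaptor of natural killer cells, and NK-like cells had 1657 to 2409 CPM.

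Sirpa, the receptor for Cd47, followed the same order. Microglia-like cells had 332 and 317 CPM in shNC and 353 and 355 CPM in shSELP. Macrophage-like cells had 191 and 161 CPM in shNC and 148 and 163 CPM in shSELP, below every microglia-like library (log2 difference 0.91 ± 0.12, edgeR adjusted p = 6.31e-06). Dendritic-cell-like cells had 32.8 to 48.1 CPM, lower than macrophage-like cells by -2.21 ± 0.15 on the log2 scale (adjusted p = 2.96e-10). Tumor-like cells had 0 to 2.08 CPM.

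Mertk, the TAM receptor of the list, had 124 and 120 CPM in shNC and 195 and 170 CPM in shSELP microglia-like cells. It had 50.7 and 54.9 CPM in shNC and 61.6 and 69 CPM in shSELP macrophage-like cells. The 2 classes did not overlap, and microglia-like cells were higher by 1.22 ± 0.15 on the log2 scale (edgeR adjusted p = 2.32e-06). Dendritic-cell-like cells had 0.995 to 8.18 CPM and tumor-like cells 0 to 2.95 CPM, near the 0.914 to 4.67 CPM of T-like cells.

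The TAM ligands were not alike, and Gas6 was highest in microglia-like cells among the 4 classes, as Mertk and Sirpa were. Gas6 lay at 106 and 117 CPM in shNC and 93.6 and 55.1 CPM in shSELP microglia-like cells, against 2.94 to 12.9 CPM in macrophage-like cells. This was the largest microglia-like to macrophage-like difference among the 10 genes, 3.86 ± 0.25 on the log2 scale (edgeR adjusted p = 2.16e-10). Tumor-like cells held 1 Gas6 UMI in shNC replicate 2 and 0 in the other 3 libraries. Endothelial-like cells had 83.3 to 208 CPM of Gas6, overlapping the range of microglia-like cells. In dendritic-cell-like cells Gas6 spanned 0 to 6.95 CPM and its difference from macrophage-like cells did not pass (-1.49 ± 0.60, edgeR adjusted p = 0.0553). That call changed with the processing. Gas6 passed with the gate limits first written (-4.20, adjusted p = 0.000824), a stricter gate (-7.05, adjusted p = 0.000703), classes from clusters (-6.85, adjusted p = 2.1e-05), thinned cells (-4.92, adjusted p = 0.0389), no filter (-1.63, adjusted p = 0.00103) and without shSELP replicate 1 (-1.95, adjusted p = 0.0141), and over all 12 alternatives the adjusted p reached 0.157.

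Pros1, the other TAM ligand, was shared by microglia-like and tumor-like cells. It lay at 53 and 69.9 CPM in shNC and 67.7 and 80.5 CPM in shSELP microglia-like cells, and at 47.5 and 35.7 CPM in shNC and 45.7 and 35.5 CPM in shSELP tumor-like cells. Macrophage-like cells had 7.21 to 8.08 CPM, below every library of both classes. The log2 difference from macrophage-like cells was 3.04 ± 0.17 for microglia-like cells (edgeR adjusted p = 3.05e-11) and 1.81 ± 0.18 for tumor-like cells (adjusted p = 1.96e-08), the latter 2.46 with summed UMIs in place of TMM. Endothelial-like cells had 75 to 121 CPM. Dendritic-cell-like cells had 2.01 to 5.97 CPM, lower than macrophage-like cells by -0.90 ± 0.33 (adjusted p = 0.0354). That last call was lost with DESeq2 (adjusted p = 0.0506), with classes from clusters (0.071), with thinned cells (0.48), with summed UMIs in place of TMM (0.0642) and without shNC replicate 2 (0.072), shSELP replicate 1 (0.0584) or shSELP replicate 2 (0.262), within a range of 0.000283 to 0.48 over 12 alternatives.

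Mfge8 was the one bridge higher in tumor-like cells than in each of the 3 phagocyte classes, library by library. It lay at 43.7 and 39.5 CPM in shNC and 47.2 and 75.7 CPM in shSELP tumor-like cells, against 6.56 to 8.94 CPM in macrophage-like, 5.8 to 7.94 CPM in microglia-like and 12.5 to 16.4 CPM in dendritic-cell-like cells. Tumor-like cells exceeded macrophage-like cells by 1.94 ± 0.17 on the log2 scale (edgeR adjusted p = 2.14e-09), or by 2.61 with summed UMIs in place of TMM, and tumor-like cells were not tested directly against the other 2 classes. The dendritic-cell-like to macrophage-like difference of Mfge8 (0.72 ± 0.22, adjusted p = 0.0131) was lost without shNC replicate 1 (0.56, adjusted p = 0.104) or shNC replicate 2 (0.63, adjusted p = 0.0904), with no filter (0.57, adjusted p = 0.092) and with a stricter gate (0.58, adjusted p = 0.0524), the highest adjusted p over 11 alternatives being 0.104. Mural-like cells, the cells around vessels, were far above all 4 classes, with 1238 and 1336 CPM in the 2 shSELP libraries that held at least 20 of them.

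Of the brakes and the uptake signal, Cd47 and Calr were found in all 4 classes. Cd47 lay at 242 and 277 CPM in shNC and 481 and 419 CPM in shSELP tumor-like cells. It spanned 390 to 507 CPM in macrophage-like, 203 to 237 CPM in microglia-like and 619 to 749 CPM in dendritic-cell-like cells. Against macrophage-like cells it was lower in tumor-like (-1.09 ± 0.14, edgeR adjusted p = 9.77e-07) and microglia-like cells (-1.17 ± 0.15, adjusted p = 1.71e-06) and higher in dendritic-cell-like cells (0.51 ± 0.14, adjusted p = 0.00600), the last a call lost with no filter (0.36, adjusted p = 0.0544, the highest of 12 alternatives). The tumor-like difference of Cd47 depends on the scaling. With summed UMIs in place of TMM it was -0.40 (edgeR adjusted p = 0.0188), and between CPM it ranged from -0.71 to -0.0049 over the 4 libraries on the log2 scale. Cd47 was thus not highest in tumor-like cells, and T-like cells had 496 to 623 CPM. Calr spanned 594 to 1143 CPM in tumor-like, 943 to 1167 CPM in microglia-like, 834 to 925 CPM in macrophage-like and 419 to 634 CPM in dendritic-cell-like cells, and microglia-like and macrophage-like cells did not differ past the threshold (0.07 ± 0.16, adjusted p = 0.777).

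Cd24a was a gene of dendritic-cell-like cells within the 4 classes. It lay at 164 and 102 CPM in shNC and 100.1 and 104 CPM in shSELP dendritic-cell-like cells, against 9.62 to 23.1 CPM in macrophage-like cells (2.55 ± 0.35, edgeR adjusted p = 5.45e-06). Tumor-like cells had 4.8 and 1.38 CPM in shNC and 4.42 and 47.3 CPM in shSELP, so 1 library stood apart. Neutrophil-like cells had 557 CPM in shSELP replicate 1, the one library with at least 20 of them. The summed level of the 6 neutrophil markers in macrophage-like cells was 52.2, 299, 597 and 87.4 CPM in shNC replicates 1 and 2 and shSELP replicates 1 and 2, with Csf3r or S100a8 the most abundant, and its part in the Cd24a level there was not tested. Of the 50-base stretches in the last 500 bases of Cd24a transcripts, 1.88% also occur in Gm6212, and none of those of the other 9 genes occur in another gene.

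Within macrophage-like cells, the cells whose best list was the monocyte list differed from those of the macrophage list. Trem2 lay at 493, 567, 540 and 544 CPM in macrophage-list cells and 153, 139, 140 and 114 CPM in monocyte-list cells of shNC replicates 1 and 2 and shSELP replicates 1 and 2. Mertk lay at 54.9, 63.4, 68.9 and 77.3 CPM against 18.2, 17.9, 20.3 and 16.4 CPM in the same order. Cd47 went the other way, with 358, 401, 438 and 472 CPM against 638, 678, 735 and 729 CPM. All 3 orders held in 4 of 4 libraries and were not tested. Among dendritic-cell-like cells of the mix, Cd24a was highest in type 1 cells (188 to 287 CPM), followed by mature cells (47.4 to 62.5 CPM) and type 2 cells (12.4 to 42.1 CPM), from 15 to 87 cells per library and list. The CD11b+ cells did not show this order, with Cd24a at 0 and 16.2 CPM in type 1, 0 and 0 CPM in mature and 35.7 and 13.1 CPM in type 2 cells of shNC and shSELP, from at most 4 UMIs.

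For 9 of the genes, Mertk not among them, the 2 genes with the most similar pattern were sought over 39 class-by-library sums of at least 20 cells, among 8532 genes. The sums share 4 libraries, so Pearson's r is a description. Tyrobp was nearest to Fcer1g (r = 0.98) and Itgax (0.917), and Trem2 to C1qa (0.926) and C1qb (0.919). Calr was nearest to Pdia3 (0.909) and Pdia6 (0.885), and Sirpa to P2ry6 (0.921) and Cd300a (0.912). Gas6 was nearest to Ctsf (0.869) and Mtus1 (0.846), and Pros1 to Tjp1 (0.898) and Nfic (0.891). Mfge8 was nearest to Tns2 (0.876) and Zc2hc1a (0.874), Cd47 to Srgap3 (0.813) and Cd7 (0.773), and Cd24a, with the weakest likeness, to Pml (0.651) and Ankrd33b (0.643).

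A list of 56 further genes of engulfment was read from the same fits, 47 of which were tested between classes. Of these, 39 were lower and 3 higher in tumor-like than in macrophage-like cells, where 35.7% of all genes were lower and 36.8% higher. Within tumor-like cells 26 of the 56 passed the filter. Many of the 47 thus entered this fit through other classes, so the count of lower genes was partly set by the filter. The 3 higher ones were Megf10, an engulfment receptor (5.87 ± 0.45 on the log2 scale), Anxa1, which binds phosphatidylserine (1.46 ± 0.17), and Dock1, an engulfment adaptor (0.69 ± 0.18, edgeR adjusted p = 0.00226). The Dock1 call was lost without shNC replicate 1 (0.53, adjusted p = 0.0581, the highest of 11 alternatives). The lowest fitted values were those of P2ry6 (-10.96 ± 0.43), Trem1 (-8.54 ± 0.35), Fcer1g (-8.42 ± 0.27) and C1qb (-8.28 ± 0.29). P2ry6 did not pass the filter within tumor-like cells, so its fold is not exact, and neither is the order of genes near 0 there. All 4 opsonins and all 9 partners of TREM and DAP12 were lower in tumor-like cells, as were the 3 tested genes of the group of TAM receptors and their shedding enzymes. Within tumor-like cells the 4 opsonins passed the filter, but of the 9 partners 3 did. The rest of the partners entered this fit through other classes. The TAM receptor group holds 4 genes, and all 4 passed the filter within tumor-like cells. Of these, 3 entered the joint fit, so their count was also partly set by its filter.

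Between microglia-like and macrophage-like cells, 14 of the 47 were higher and 14 lower, where 18.5% of all genes were higher and 19.6% lower. Cd36 (2.66 ± 0.29), Siglecg (1.60 ± 0.39), Itgb5, a subunit of an Mfge8-binding integrin (1.49 ± 0.17), and Lilra5 (1.16 ± 0.32) led the genes higher in microglia-like cells. Trem3 (-4.79 ± 0.38), Thbs1 (-4.12 ± 0.34), Trem1 (-4.03 ± 0.22) and Anxa1 (-2.97 ± 0.24) led those lower. Of the 4 opsonins, 3 were higher and 1 lower in microglia-like cells. Without shSELP replicate 2 the calls of Siglecg (0.998, edgeR adjusted p = 0.0927) and Lilra5 (0.90, adjusted p = 0.0724) were lost, each at the highest adjusted p of its alternatives. Between dendritic-cell-like and macrophage-like cells 4 were higher and 34 lower, where 19.3% of all genes were higher and 21.7% lower. Within dendritic-cell-like cells 38 of the 56 passed the filter, so some of the 47 entered this fit through other classes. The higher ones were Timd4, a phosphatidylserine receptor (4.74 ± 0.49), Siglecg, the mouse counterpart of the Cd24 receptor (4.51 ± 0.29), Cd36 (1.83 ± 0.32) and Havcr2 (0.44 ± 0.16, adjusted p = 0.0317), whose call was lost in 8 of 12 alternatives, 3 of them without shNC replicate 1 (0.35, adjusted p = 0.105), shNC replicate 2 (0.41, adjusted p = 0.0759) or shSELP replicate 1 (0.43, adjusted p = 0.0692). Siglec1 (-6.22 ± 0.72), Thbs1 (-6.13 ± 0.42), Cd22 (-5.49 ± 0.64) and Apoe (-4.92 ± 0.30) were the lowest.

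The study asked what silencing Selp in the tumor cells does to the tumor and its myeloid cells. In none of the 4 classes did any of the 10 genes pass an adjusted p of 0.05 in edgeR, and DESeq2 also called 0. In tumor-like cells 5 of the 10 passed the filter on low counts and 0 were called, beside 0.0102% of 9803 genes. In microglia-like cells 0 of 9 were called, beside 2.64% of 8024 genes, in macrophage-like cells 0 of 10, beside 0.0998% of 11022 genes, and in dendritic-cell-like cells 0 of 7, beside 0% of 7047 genes. At an unadjusted p under 0.05 the counts were 2 of 5, 3 of 9, 2 of 10 and 1 of 7 in that order, beside 10.8%, 16.9%, 12.9% and 7.79% of all genes. Among all genes in dendritic-cell-like cells, where edgeR called 0, the unadjusted p was under 0.05 for 549, while 4 were called with DESeq2. Leaving out shNC replicate 1, shNC replicate 2, shSELP replicate 1 or shSELP replicate 2 moved the count of all genes called from 1 to 54, 297, 5 or 3 in tumor-like cells. In the same order it moved from 212 to 463, 99, 225 or 468 in microglia-like cells, from 11 to 0, 13, 0 or 1 in macrophage-like cells, and from 0 to 21, 283, 12 or 49 in dendritic-cell-like cells. The genes left out by the filter were Sirpa, Cd24a, Mertk, Gas6 and Trem2 in tumor-like cells, Cd24a in microglia-like cells, and Mertk, Gas6 and Pros1 in dendritic-cell-like cells.

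In tumor-like cells Cd47 and Calr were both higher in the 2 shSELP than in the 2 shNC libraries without passing. Cd47 differed by 0.72 ± 0.19 on the log2 scale (edgeR adjusted p = 0.362). Calr lay at 594 and 764 CPM in shNC and 1143 and 1074 CPM in shSELP, a difference of 0.63 ± 0.20 (adjusted p = 0.381). The median tumor score of these cells was 0.349 and 0.308 in shNC and 0.275 and 0.242 in shSELP, and its part in these values was not tested. Cd24a, which did not pass the filter, was called when all genes were kept. Its level stood apart in shSELP replicate 2 alone, as given above.

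In microglia-like cells Mertk was higher in both shSELP libraries (0.54 ± 0.16, edgeR adjusted p = 0.0853), and Gas6 and Tyrobp were lower in both, by -0.60 ± 0.21 (adjusted p = 0.134) and -0.42 ± 0.13 (adjusted p = 0.0970). None passed, but each did in at least 1 alternative. Without shSELP replicate 1 the difference was -1.05 for Gas6 (edgeR adjusted p = 0.00342) and -0.45 for Tyrobp (adjusted p = 0.0486), and without shNC replicate 1 Gas6 gave -0.65 (adjusted p = 0.0435). With the replicate number as a block Mertk (0.52, adjusted p = 0.0472) and Gas6 (-0.67, adjusted p = 0.0399) passed. Gas6 and Tyrobp also passed with no filter (adjusted p = 0.0432 for Gas6 and 0.041 for Tyrobp). Over 12 alternatives the adjusted p spanned 0.00342 to 0.609 for Gas6 and 0.041 to 0.44 for Tyrobp. The shSELP replicate 1 library also held the most microglia-like cells, 284 against 77, 109 and 123 in shNC replicates 1 and 2 and shSELP replicate 2. The median microglia score of these cells was 0.426 and 0.392 in shNC and 0.546 and 0.463 in shSELP. The part of cell number and score in the 3 values was not tested.

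In macrophage-like cells Mertk (0.36 ± 0.11, edgeR adjusted p = 0.257) and Cd47 (0.28 ± 0.10, adjusted p = 0.323) were higher in both shSELP libraries without passing. In dendritic-cell-like cells Calr lay at 596 and 634 CPM in shNC and 516 and 419 CPM in shSELP (-0.39 ± 0.18, adjusted p = 0.633). Calr spanned 608 to 1097 CPM in type 1 and 179 to 305 CPM in mature cells. Type 1 cells numbered 37 and 31 in shNC and 22 and 29 in shSELP, and mature cells 39 and 73 in shNC and 48 and 87 in shSELP. The part of this make-up in the Calr values was not tested. The median score for the own class was 0.401 and 0.41 in shNC and 0.437 and 0.438 in shSELP macrophage-like cells, and 0.548 and 0.518 in shNC and 0.493 and 0.498 in shSELP dendritic-cell-like cells, and its part was not tested. Trem2 in dendritic-cell-like cells depended on shNC replicate 2, without which the difference turned from -0.18 to 1.95 (edgeR adjusted p = 0.00871, in a range of 0.00871 to 1 over 10 alternatives).

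Whether the response differed between classes was tested by interaction. None of the 10 genes passed for tumor-like against macrophage-like cells, beside 0.0401% of 9968 genes, or for microglia-like against macrophage-like cells, beside 0.0502%. Within tumor-like cells 5 of the 10 passed the filter. For Sirpa, Cd24a, Mertk, Gas6 and Trem2, which did not, the absence of a call there says little, with Gas6 at -2.86 ± 4.86. The same holds for Cd24a in microglia-like cells. The unadjusted p was under 0.05 for 2 of the 10 in each, beside 11.7% and 7.57% of all genes, and DESeq2 called 0 in each. The lowest adjusted p for tumor-like against macrophage-like cells was that of Calr (0.61 ± 0.22, edgeR adjusted p = 0.273), and for microglia-like against macrophage-like cells that of Gas6 (-1.26 ± 0.40, adjusted p = 0.38). With no filter the Gas6 value passed (-1.22, adjusted p = 0.0498), as did Cd24a in tumor-like against macrophage-like cells (1.92, adjusted p = 0.0142), and neither passed in another alternative. With classes from clusters the 2 values turned to 0.19 for Gas6 and -0.55 for Cd24a. With 1 library left out Gas6 ranged from -1.80 (without shSELP replicate 2) to -0.47 (without shSELP replicate 1) and Cd24a from -0.30 to 3.79, the -0.30 without shSELP replicate 2, where Cd24a was at 47.3 CPM in tumor-like cells against 4.42 CPM in shSELP replicate 1.

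Of the further 56 genes, 26, 43, 48 and 38 were tested between the hairpins in tumor-like, microglia-like, macrophage-like and dendritic-cell-like cells, and 1, 3, 0 and 0 were called, beside 0.0102%, 2.64%, 0.0998% and 0% of all genes. At an unadjusted p under 0.05 there were 4, 15, 7 and 6, beside the shares given above. C3, a complement opsonin, rose in tumor-like cells, from 2.64 and 3.12 CPM in shNC to 53.1 and 89.9 CPM in shSELP, a log2 difference of 4.50 ± 0.37 (edgeR adjusted p = 0.00807). These sums rest on 11, 9, 36 and 38 UMIs, and the call was lost with a stricter gate (4.73, adjusted p = 0.132, the highest of 11 alternatives). C3 in macrophage-like cells lay at 268 and 313 CPM in shNC and 379 and 445 CPM in shSELP. The summed macrophage markers in tumor-like cells were 538, 576, 661 and 611 CPM in shNC replicates 1 and 2 and shSELP replicates 1 and 2, with 7, 6, 3 and 4 of 7 detected and Fn1 the most abundant, and their part in the C3 level was not tested.

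In microglia-like cells Apoe, a lipid carrier that binds Trem2, fell from 15524 and 14793 CPM to 8957 and 11288 CPM (-0.64 ± 0.14, edgeR adjusted p = 0.0262). Elmo1, an engulfment adaptor, rose from 79.4 and 61.2 CPM to 136 and 114 CPM (0.82 ± 0.18, adjusted p = 0.0296), and Siglec1 fell from 9.27 and 9.89 CPM to 2.19 and 1.45 CPM (-2.33 ± 0.56, adjusted p = 0.0388). In these sums a count of 0 allows up to 3.97 and 1.86 CPM in shNC and 1.1 and 2.18 CPM in shSELP. Siglec1 in shSELP was thus near the floor. These calls changed with the limits of the gate and with other settings, and the microglia score differed between the hairpins as given above. With the limits first written for it, 56 genes were called in microglia-like cells in place of 212, Apoe gave -0.30 (edgeR adjusted p = 0.52) and Elmo1 0.70 (adjusted p = 0.112), and Siglec1 did not pass the filter. With classes from clusters Apoe gave -0.35 (adjusted p = 0.122), Elmo1 0.71 (0.0757) and Siglec1 -1.33 (0.132). With a stricter gate Apoe gave -0.24 (0.616) and Elmo1 0.62 (0.15), and Elmo1 gave 0.79 (0.0819) with DESeq2 and 0.67 (0.466) with thinned cells. Without shNC replicate 2 Elmo1 gave 0.58 (adjusted p = 0.334), without shSELP replicate 1 it gave 0.71 (adjusted p = 0.075), and leaving out any of the 4 libraries ended the Siglec1 call (adjusted p = 0.135 to 0.528) at values of -2.67 to -2.17.

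The CD11b+ cells, with 1 library per group, allowed no test between the hairpins. Ratios of shSELP to shNC were read with 95% counting intervals, for genes with at least 20 UMIs over both libraries, and called past a fold of 1.5. Of the 10 genes, 0 of 8 were past it in microglia-like cells, where 22.3% of 6677 genes were, 2 of 10 in macrophage-like cells, where 16.5% of 10463 genes were, and 2 of 5 in dendritic-cell-like cells, where 33.6% of 3586 genes were.

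In CD11b+ macrophage-like cells Mertk lay at 55.2 CPM in shNC and 92.9 CPM in shSELP, a ratio of 1.68 (1.5 to 1.88). Pros1 lay at 4.59 and 7.9 CPM, a ratio of 1.72 (1.15 to 2.59) from 42 and 68 UMIs. The study named Pros1 from these CD11b+ cells, and in the same list a gene printed as Clar, which may be Calr. The direction of Pros1 here is thus not independent evidence, and that of Calr may not be. In the macrophage-like cells of the mix Pros1 lay at 7.73 and 8.08 CPM in shNC and 7.34 and 7.21 CPM in shSELP. Trem2 lay at 608 and 466 CPM, a ratio of 0.766 (0.735 to 0.798), and Calr at 701 and 935 CPM, a ratio of 1.33 (1.29 to 1.38), both within a fold of 1.5. Mertk and Trem2 differed between macrophage-list and monocyte-list cells of the mix, as given above. The part of that make-up in these CD11b+ ratios was not tested.

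In CD11b+ microglia-like cells Mertk had a ratio of 1.47 (1.12 to 1.94), Trem2 of 0.715 (0.666 to 0.769) and Gas6 of 0.71 (0.556 to 0.901). In dendritic-cell-like cells Sirpa had a ratio of 2.78 (1.62 to 5) from 18 and 61 UMIs and Trem2 of 1.91 (1.24 to 3.01) from 31 and 72 UMIs. The Trem2 ratio was not stable, at 11.2 with the gate limits first written, 3.7 with a stricter gate and 0.386 with classes from clusters. The make-up of these cells moved too. Type 1 cells numbered 15 in shNC and 42 in shSELP, mature cells 52 and 38 and type 2 cells 27 and 23. The part of these shifts in the 2 ratios was not tested. The CD11b+ cells of the type 1 list had Trem2 at 418 CPM in shNC and 361 CPM in shSELP and Tyrobp at 2238 and 2453 CPM, unlike the dendritic-cell-like cells of the mix, and Cd24a far below that of type 1 cells of the mix, so their name rests on the list alone. Of the further engulfment genes with at least 20 UMIs, 4 of 40 were past the fold and higher and 0 lower in microglia-like cells, beside 13.5% and 8.81% of all genes. In macrophage-like cells 9 of 47 were higher and 2 lower, beside 11.3% and 5.23%, and in dendritic-cell-like cells 17 of 29 were higher and 3 lower, beside 20.2% and 13.4%. C3 was among them in each class, with ratios of 1.9 (1.46 to 2.46), 2.57 (2.42 to 2.74) and 2.6 (1.33 to 5.46).

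**Figure D2:**
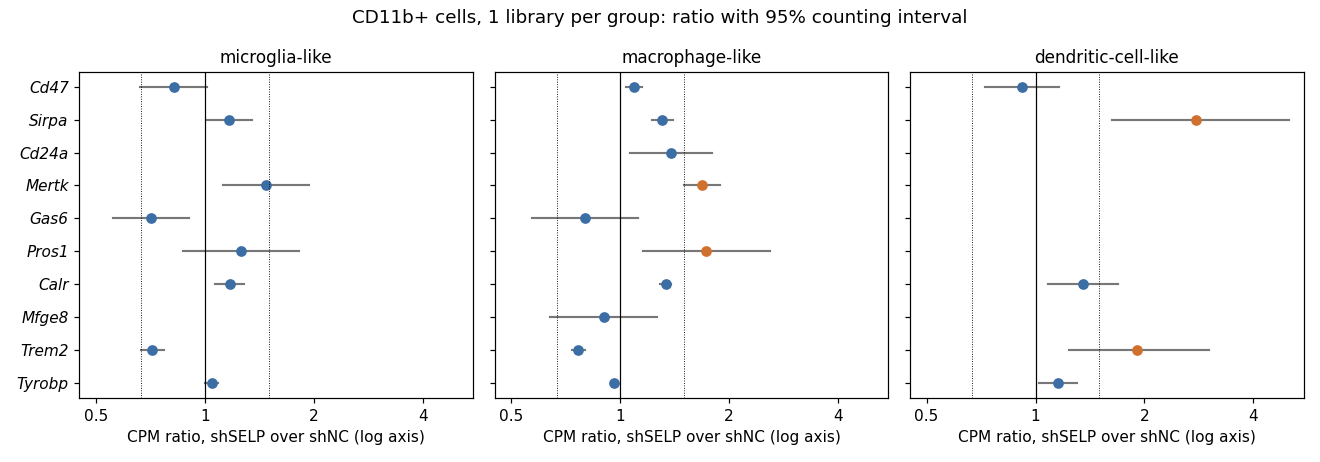
Ratio of CPM in shSELP to shNC in CD11b+ cells, on a log axis, with 95% counting intervals, for genes with at least 20 UMIs. Orange points are past a fold of 1.5 (dotted lines): Mertk and Pros1 in macrophage-like cells and Sirpa and Trem2 in dendritic-cell-like cells.

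The 10 genes lie on 6 chromosomes of the GRCm38 (mm10) build in GENCODE M21, all as protein-coding genes. Trem2 is at chr17:48346401-48354147 on the plus strand, Tyrobp at chr7:30413760-30417585 (plus), Mertk at chr2:128698956-128802894 (plus) and Sirpa at chr2:129592835-129632228 (plus). Gas6 is at chr8:13465374-13494490 (minus), Calr at chr8:84841850-84846934 (minus), Mfge8 at chr7:79133768-79149060 (minus), Cd24a at chr10:43578284-43584265 (plus), Cd47 at chr16:49800533-49915010 (plus) and Pros1 at chr16:62854307-62929346 (plus).

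RefSeq promoter windows of 300 bases (GRCm38.p6) were matched for 7 of the 10 genes. They are shown for Trem2 and Mertk, 2 receptors that were higher in microglia-like than in macrophage-like cells. Capitals mark GAGGAA or its reverse complement TTCCTC, letters found in the core of PU.1 sites, searched on both strands. The window of Trem2 (chr17:48346151-48346450, plus strand) held 1 match and that of Mertk (chr2:128698665-128698964, plus strand) 0, where 28.3% of 32851 windows held at least 1. Of the 7 genes 2 held a match, Trem2 and Mfge8, and Gas6 and Pros1, also higher in microglia-like cells, held 0. A match is a description of letters and not a site.
Trem2: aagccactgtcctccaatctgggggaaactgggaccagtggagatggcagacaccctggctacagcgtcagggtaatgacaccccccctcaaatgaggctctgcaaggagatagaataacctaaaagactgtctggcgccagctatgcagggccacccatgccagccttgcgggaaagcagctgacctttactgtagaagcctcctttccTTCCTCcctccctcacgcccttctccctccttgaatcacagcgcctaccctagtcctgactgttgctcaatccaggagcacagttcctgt
Mertk: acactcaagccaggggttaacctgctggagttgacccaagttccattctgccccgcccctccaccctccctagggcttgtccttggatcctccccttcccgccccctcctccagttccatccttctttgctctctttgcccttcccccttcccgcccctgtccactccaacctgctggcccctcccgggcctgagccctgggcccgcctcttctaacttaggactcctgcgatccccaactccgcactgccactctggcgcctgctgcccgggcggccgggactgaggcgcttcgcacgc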

How the data were processed

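Single cells of GL261 tumors were read from the deposited tables of raw UMI counts per gene and cell, which the authors made with Cell Ranger 1.3 on mm10, with no normalization. Cells with under 500 genes were left out, 446 in the mix and 189 in the CD11b+ table. The 10 genes, the pathway list and the marker lists were chosen with earlier results of these data known.

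Each cell was gated on the mean scaled log level of each marker list. The limits of the gate were first written as a score of 0.25 and a margin of 0.1. They were changed to 0.2 and 0.05 after marker scores, cell numbers per library, 16 pairs of limits and a comparison with clusters had been seen, and before any level of the 10 genes was looked at. The limits first written were then run as an alternative, chosen after seeing the data, as was the stricter gate's pair of 0.25 and 0.15. In microglia-like cells the changed limits gave 212 genes called between the hairpins in place of 56.

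UMIs were summed per class and library and tested over all genes with edgeR 4.0.16 (quasi-likelihood F test, two-sided, filterByExpr, TMM scaling, Benjamini-Hochberg adjustment, threshold 0.05), and with DESeq2 1.42.0 as an alternative. Differences between classes, and between their responses, came from 1 fit of the 4 classes that blocked on the library. Errors are the log2 difference divided by the square root of F. Where a library was left out, the lone library of its group was assumed to vary like the other group's. CD11b+ ratios carry conditional exact binomial intervals of 95%, for counting error only, as do the limits of 3 UMIs given for a count of 0.

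Named pathway genes were those called between hairpins, and the 4 with the largest called difference in each direction between classes. Alternatives were DESeq2, no filter, each library left out, the replicate number as a block, a stricter gate, cells thinned to 2000 UMIs, classes from clusters (scanpy 1.11.5), removal of Scrublet calls, TMM scaling in the CD11b+ experiment and the limits first written. Added after the results were known were summed UMIs in place of TMM between classes, and the gate, thinning, cluster and Scrublet settings for the responses. Scrublet called 0.871% of cells in the mix and 0.0181% in the CD11b+ table, so removing its calls tested little there. The pipeline was tested on simulated data.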

Additional observations from a re-analysis of the deposited data

Results flagged for a closer look

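The response of C3, a complement opsonin, to the Selp hairpin differed between tumor-like and macrophage-like cells of the mix. In tumor-like cells C3 lay at 2.64 and 3.12 CPM in shNC and 53.1 and 89.9 CPM in shSELP, and in macrophage-like cells at 268 and 313 CPM in shNC and 379 and 445 CPM in shSELP. The tumor-like response exceeded the macrophage-like response by 3.84 ± 0.39 on the log2 scale (edgeR interaction, adjusted p = 5.02e-05). Over 11 alternatives the difference was 3.52 to 4.02, and it did not pass with thinned cells (3.78, adjusted p = 0.0944). Macrophage-like cells had the higher C3 level in each of the 4 libraries, and the tumor-like values rest on 11, 9, 36 and 38 UMIs. With a stricter gate the difference of 4.02 passed, while the rise within tumor-like cells did not (4.73, adjusted p = 0.132). The cause was not tested.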

How the results depend on the processing

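The class differences kept their direction for 9 of the 10 genes in each alternative run, the exception being Calr between tumor-like or microglia-like and macrophage-like cells. With summed UMIs in place of TMM, Calr in tumor-like against macrophage-like cells turned to 0.0268 and lost its call. The comparisons between hairpins were less stable, and the number of genes called in them changed with most settings. The cause was not tested for any value below. A count is of all genes called, and other values are log2 differences unless said otherwise.

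DESeq2 called 20 genes in tumor-like, 71 in microglia-like, 116 in macrophage-like and 4 in dendritic-cell-like cells, 20 in the tumor-like minus macrophage-like response, where Gas6 turned to 0.70, and 15 in the microglia-like minus macrophage-like response. With no filter the counts were 291, 464, 722, 86, 222 and 88 in that order, and values turned to -0.00028 for Tyrobp in macrophage-like cells, -0.037 for Calr in microglia-like against macrophage-like cells and -0.063 for Mfge8 in the tumor-like response. With the replicate block the counts were 23 in tumor-like, 367 in microglia-like and 0 in macrophage-like cells, and Mertk (0.52, adjusted p = 0.0472) and Gas6 (-0.67, adjusted p = 0.0399) passed in microglia-like cells. The 2 libraries that share a replicate number are not marked as a batch.

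The stricter gate gave 0 genes in tumor-like, 66 in microglia-like and 31 in macrophage-like cells, and values of 0.078 for Trem2 in microglia-like cells, 0.085 for Mfge8 in dendritic-cell-like cells and -0.035 for Calr in microglia-like against macrophage-like cells. In the tumor-like response it gave 2 genes, 0.0493 for Sirpa and -0.35 for Mfge8, and in the microglia-like response 0.31 for Mfge8 and 0.053 for Trem2. Thinned cells gave 0 genes in tumor-like, 10 in microglia-like and 1 in macrophage-like cells, 3058, 1778 and 1919 between tumor-like, microglia-like or dendritic-cell-like and macrophage-like cells, and 7 ratios of the 10 genes past the fold in CD11b+ cells in place of 4. Values then turned to -0.042 for Mfge8 in tumor-like cells, -0.17 for Pros1 and 0.18 for Trem2 in microglia-like cells and -0.0048 for Tyrobp in macrophage-like cells, to 0.75 for Tyrobp in the tumor-like response, and to -1.30 for Cd24a, -0.57 for Pros1, 0.0829 for Calr and 0.16 for Trem2 in the microglia-like response. Classes from clusters gave 5 genes in tumor-like, 79 in microglia-like and 62 in macrophage-like cells, -0.78 for Gas6 in macrophage-like cells, 0.11 for Trem2 in dendritic-cell-like cells a CD11b+ dendritic-cell-like Trem2 ratio of 0.386, 24 genes and -0.55 for Cd24a in the tumor-like response, and 1 gene, -0.80 for Cd24a and 0.19 for Gas6 in the microglia-like response. The gate limits first written gave 56 genes in microglia-like cells, 0.10 for Trem2 there and 0.057 for Trem2 in dendritic-cell-like cells, 7 genes and -0.12 for Mfge8 in the tumor-like response, and 0.0723 for Mfge8 and 0.0333 for Trem2 in the microglia-like response.

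Leaving out each library in turn gave 3 to 297 genes in tumor-like, 99 to 468 in microglia-like, 0 to 13 in macrophage-like and 12 to 283 in dendritic-cell-like cells, 2 to 42 in the tumor-like minus macrophage-like response and 3 to 12 in the microglia-like minus macrophage-like response. In tumor-like cells Pros1 spanned -0.36 to 0.15 and Tyrobp -0.80 to 1.29. In microglia-like cells Mfge8 spanned -0.33 to 0.076 and Trem2 -0.069 to 0.022. In macrophage-like cells Sirpa spanned -0.28 to 0.022, Cd24a -0.027 to 1.17, Tyrobp -0.0396 to 0.064 and Gas6 -0.60 to 1.49. In dendritic-cell-like cells Cd24a spanned -0.70 to 0.045 and Trem2 -0.95 to 1.95. In the tumor-like minus macrophage-like response Pros1 spanned -0.43 to 0.16, Tyrobp -0.87 to 1.11, Mfge8 -0.27 to 0.28, Cd24a -0.30 to 3.79 and Trem2 -0.081 to 1.18. In the microglia-like minus macrophage-like response Cd24a spanned -0.47 to 1.26, Calr -0.29 to 0.0203 and Mertk -0.0305 to 0.37.

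Leaving out Scrublet calls turned no direction and changed no call among the 131 values compared for single genes, where ratios had to stay in their counting interval, and 8 in place of 9 of the 10 genes were then tested in microglia-like cells. Depth limits the tumor-like results in shSELP, which rest on 43 and 52 cells, and genes at a few UMIs.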
